A study of Mus musculus with 6 samples.

Results

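Resident cardiac macrophage genes are described here: Cd163, Lyve1, Timd4, Folr2, Mrc1, Cbr2, F13a1, Adgre1, Csf1r and Cx3cr1. They were taken as a list of symbols matched to Entrez gene numbers, and all 10 were found among the 17524 genes of the table. All 10 also passed the filter on low counts. The study set mouse hearts labelled as overexpressing transcription factor EB (TFEB), a regulator of lysosome and autophagy genes, against wild-type hearts after a heart attack. The 3 TFEB overexpression libraries (numbered 34, 41 and 43) are from a line that carries a TFEB cassette at Rosa26 behind a stop that Cre removes, with Cre under the Acta2 promoter. Acta2, the smooth muscle actin gene, is used by smooth muscle and myofibroblasts. The 3 control libraries (numbered 35, 36 and 37) are labelled WT, and no source used here says whether they carry the cassette or Cre alone. Every mouse in both groups had the left anterior descending coronary artery tied off; the time after the operation, the age and the sex are not given in the labels. The labels name heart as the tissue and also fibroblasts as the cells. Myh6, a myosin gene of heart muscle, stood at 7110 to 12760 TPM and Pdgfra, a fibroblast marker, at 17.1 to 32.5 TPM, so the libraries held heart muscle RNA in every case. Nothing in the labels says that libraries came from separate mice, so the p-values reflect how these libraries vary, which may be technical.

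Macrophages that live in the healthy mouse heart are seeded largely before birth and renew themselves in place. They are known by the phosphatidylserine receptor TIM-4 (Timd4), the hyaluronan receptor LYVE1 and the folate receptor beta (Folr2), and they clear dying cells and debris. After an infarct such cells are lost from the injured zone, while monocytes that carry the chemokine receptor CCR2 enter from the blood and become macrophages there. Csf1r, Adgre1 and Cx3cr1 are shared between resident and recruited cells, whereas Cd163, Lyve1, Timd4, Folr2 and Cbr2 are used to mark the resident ones.

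Depth ran from 12942480 to 14969287 estimated counts per library. Tfeb itself stood at 43.3 ± 3.40 CPM (counts scaled to depth by TMM) in TFEB overexpression and 36.5 ± 4.20 CPM in control (SD, n = 3 each). By library it was 45.3, 45.2 and 39.4 CPM in TFEB 34, 41 and 43, against 34.4, 33.8 and 41.4 CPM in controls 35, 36 and 37. The groups overlapped, since TFEB 43 lay below control 37. Its ratio was 1.19, with a 95% interval from 0.976 to 1.44, and it did not pass the test (edgeR adjusted p = 1.00). The libraries differed widely inside both groups. Matrix genes, the mean of 12 collagens and related genes on a log2 scale relative to the 6 libraries, were highest in TFEB 34 (1.64) and lowest in TFEB 43 (−1.84). The control libraries spanned 0.93 in control 36 to −1.41 in control 37. Over all genes, TFEB 43 was closest to control 37 and TFEB 41 to control 36, with a chi-square over degrees of freedom of 9.29 and 13.9, against 43.5 to 149 for pairs inside a group. How large an infarct each sample held is not given, so this spread is set beside the results below.

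No member passed the test, and 7 of the 10 had a lower value in TFEB overexpression. With edgeR's quasi-likelihood test, adjusted over all 13565 genes tested, 0 members were called, against a background of 0% of genes called. Without adjustment, 2 members had a p under 0.05, Cd163 and Folr2, and both were lower. Over all genes 1.21% reached that p, 0.833% on the lower side and 0.376% on the higher. Log2 fold changes were below 0 for 49.0% of all genes and above 0 for 51.0%. The groups did not overlap in 1 member, Folr2, which was lower; 2.51% of all genes lay wholly lower in TFEB overexpression and 2.24% wholly higher. The count of 2 with an unadjusted p under 0.05 rests on several libraries: it was 0 without TFEB 34 (1.69% of all genes), TFEB 41 (0.639%), control 35 (0.709%) or control 37 (1.91%), 2 without control 36 (2.97%) and 4 without TFEB 43 (4.21%). By DESeq2's adjusted p 0.00737% of genes were called, and no member was among them. The median log2 fold change was −0.25 over the 10 members and 0.00301 over all genes tested. In whole tissue, fewer macrophages and less of an RNA in each macrophage cannot be told apart.

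**Figure D1:**
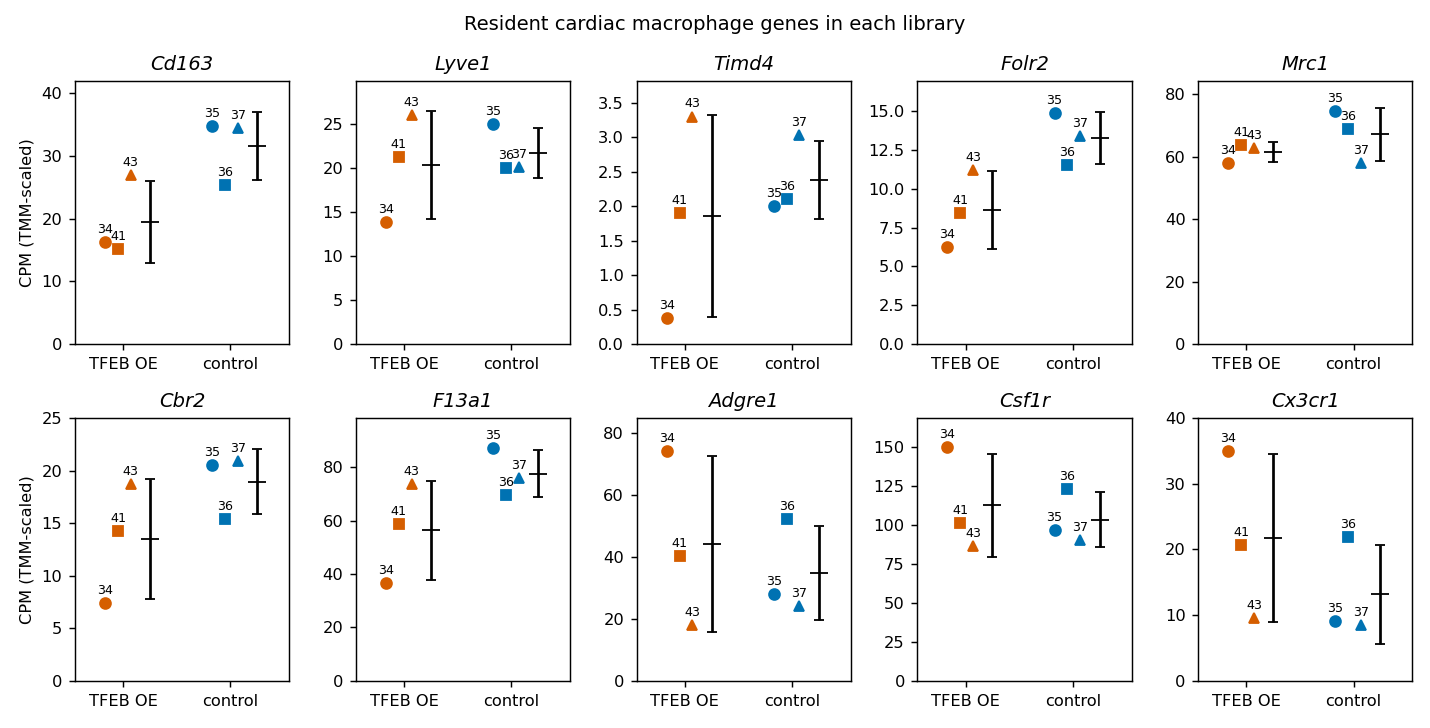
CPM of the 10 genes in each library, with TFEB overexpression (TFEB OE, orange) left of control (blue); numbers name the libraries and black bars give the mean and SD of 3. Cd163 and Folr2 stand lower in TFEB overexpression, while Adgre1, Csf1r and Cx3cr1 are highest in TFEB 34.

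Cd163, the scavenger receptor that takes up haemoglobin bound to haptoglobin, had the smallest p of the members. The gene is Entrez 93671 and lies on chromosome 6 of mm10, from 124304636 to 124330529. Its levels were 16.3, 15.2 and 27.0 CPM in TFEB 34, 41 and 43, against 34.8, 25.3 and 34.4 CPM in controls 35, 36 and 37. TFEB 34 and TFEB 41 were below every control, but TFEB 43 lay above control 36, so the groups overlapped. The means were 19.5 ± 6.52 CPM in TFEB overexpression and 31.5 ± 5.37 CPM in control (SD, n = 3 each). On the log2 scale the difference was −0.70 (SE 0.25), which is 0.618 times the control level (95% interval 0.404 to 0.944). By p it ranked 86 of 13565 genes, and its edgeR adjusted p was 1.00. It came from 208 to 519 counts per library.

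Folr2, the folate receptor beta of resident tissue macrophages, was the member whose groups did not overlap. It is Entrez 14276, on chromosome 7 of mm10 between 101839988 and 101857190. Its levels were 6.23, 8.42 and 11.2 CPM in TFEB 34, 41 and 43, against 14.9, 11.5 and 13.4 CPM in controls 35, 36 and 37. TFEB 43 and control 36 were nearly level. The means were 8.63 ± 2.51 CPM in TFEB overexpression and 13.3 ± 1.69 CPM in control (SD, n = 3 each). On the log2 scale it differed by −0.62 (SE 0.24, edgeR adjusted p = 1.00), which is 0.649 times the control level (95% interval 0.436 to 0.966). It ranked 111 by p.

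Timd4, whose protein binds phosphatidylserine on dying cells, was the scarcest member. It stood at 0.382, 1.90 and 3.30 CPM in TFEB 34, 41 and 43, against 2.01, 2.1 and 3.03 CPM in controls 35, 36 and 37. TFEB 34 was far below the rest, while TFEB 43 was the highest of the 6. These values rest on 6, 26 and 40 counts in the TFEB libraries and 30, 30 and 39 in the controls. The log2 fold change of −0.37 (SE 0.67) turned to 0.13 without TFEB 34 and was −1.07 without TFEB 43. The 95% interval of its ratio, from 0.251 to 2.38, includes both directions.

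Lyve1, the hyaluronan receptor, is made by resident macrophages and also by lymphatic vessels. It stood at 13.9, 21.3 and 26.1 CPM in TFEB 34, 41 and 43, against 25.1, 20.1 and 20.1 CPM in controls 35, 36 and 37. The lowest and the highest value were both in TFEB overexpression. Its log2 fold change was −0.09 (SE 0.24), or 0.12 without TFEB 34 and 0.020 without control 35. Of 6 other lymphatic genes 5 lay above 0 and 0 passed (median 0.07 on the log2 scale); their summed level was 171 to 250 CPM there and 178 to 211 CPM in control. Prox1, the transcription factor that specifies lymphatic vessels, is also made by heart muscle and was present in every library. It stood at 60.7, 102 and 147 CPM in TFEB 34, 41 and 43 and at 93.7, 89.0 and 105 CPM in controls 35, 36 and 37. Prox1 was thus a large part of the summed level, which is not a measure of lymphatic vessels alone.

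Mrc1, the mannose receptor CD206, varied least. It stood at 57.9, 63.7 and 62.8 CPM in TFEB 34, 41 and 43, against 74.6, 68.8 and 57.8 CPM in controls 35, 36 and 37, so the highest library was only 1.29 times the lowest. The log2 fold change was −0.13 (SE 0.12), or −0.042 without control 35 and −0.22 without control 37. The 95% interval of the ratio ran from 0.755 to 1.11, the narrowest of the 10. The ratio of 0.618 found for Cd163 lies outside it, but the interval of that ratio, 0.404 to 0.944, overlaps that of Mrc1. Whether the ratios of Cd163 and Mrc1 differ was not tested.

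Cbr2 and F13a1 had the other lower values of this kind. Cbr2, a carbonyl reductase used as a marker of resident macrophages, stood at 7.44, 14.3 and 18.7 CPM in TFEB 34, 41 and 43, against 20.6, 15.4 and 20.9 CPM in controls 35, 36 and 37. Its log2 fold change was −0.50 (SE 0.33), or −0.20 without TFEB 34 and −0.81 without TFEB 43. The groups overlapped through TFEB 43, which lay above control 36. F13a1, the A subunit of coagulation factor XIII, stood at 36.7, 58.6 and 73.7 CPM in TFEB 34, 41 and 43, against 87.0, 69.7 and 76.1 CPM in controls 35, 36 and 37. Its log2 fold change was −0.46 (SE 0.25), or −0.23 without TFEB 34 and −0.70 without TFEB 43. As with Cbr2, only TFEB 43 lay above the lowest control. F13a1 is made by megakaryocytes as well, so platelet genes are given beside it; the 4 tested all overlapped between the groups and 0 passed. Itga2b, a platelet integrin, stood at 2.16, 1.46 and 2.39 CPM in TFEB 34, 41 and 43 and at 9.99, 2.17 and 15.7 CPM in controls 35, 36 and 37. The summed level of the 6 platelet genes was 15.4 to 19.1 CPM in TFEB overexpression and 14.2 to 50.9 CPM in control, lowest in control 36, and none was at 0 throughout. With the level of the 4 tested platelet genes as a covariate, chosen after seeing the data, F13a1 stood at −0.43 (SE 0.34), Cd163 at −0.46 (SE 0.29) and Folr2 at −0.53 (SE 0.31). In that fit 0 members had an unadjusted p under 0.05, where 0.980% of all genes had one.

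The receptors shared with recruited macrophages had values above 0, and none passed. Csf1r, the receptor for the growth factors CSF1 and IL-34 on which macrophages depend, stood at 150, 101 and 86.4 CPM in TFEB 34, 41 and 43, against 96.7, 123 and 90.3 CPM in controls 35, 36 and 37. The group means were 112 ± 33.2 CPM in TFEB overexpression and 103 ± 17.4 CPM in control (SD, n = 3 each). The difference on the log2 scale was 0.12 (SE 0.23). Adgre1, the F4/80 antigen of mouse macrophages, stood at 74.2, 40.3 and 18.0 CPM in TFEB 34, 41 and 43, against 28.1, 52.3 and 24.2 CPM in controls 35, 36 and 37. Both the highest and the lowest library belonged to TFEB overexpression, 4.12 times apart, and the log2 fold change was 0.34 (SE 0.53). Cx3cr1, the fractalkine receptor of patrolling monocytes and many tissue macrophages, stood at 34.9, 20.7 and 9.50 CPM in TFEB 34, 41 and 43, against 9.05, 21.9 and 8.55 CPM in controls 35, 36 and 37. TFEB 34 was again far above the rest, and the log2 fold change was 0.72 (SE 0.56). Without TFEB 34 the log2 fold changes were −0.14 for Csf1r, −0.25 for Adgre1 and 0.20 for Cx3cr1. Without control 36 the same genes gave 0.27, 0.76 and 1.31. Leaving out TFEB 43 instead gave 0.28, 0.72 and 1.08 in that order. Without TFEB 41 Csf1r stood at 0.21. Leaving out control 35 gave 0.076, 0.21 and 0.51 in that order, and leaving out control 37 gave 0.033, 0.14 and 0.49.

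**Figure D2:**
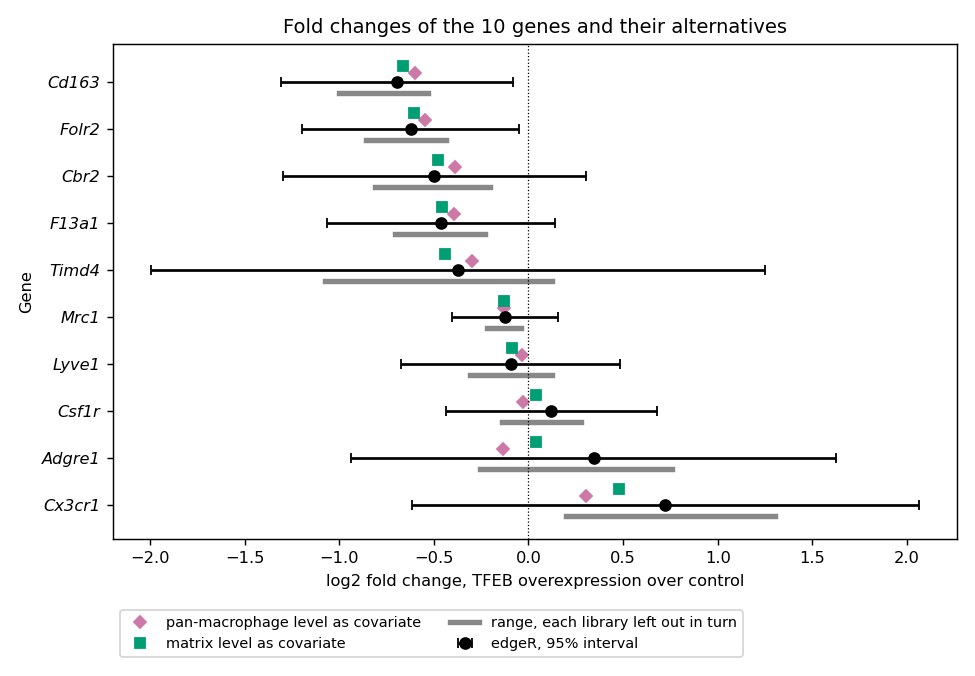
Log2 fold change of each gene, TFEB overexpression over control, from edgeR with its 95% interval (black), with the pan-macrophage or matrix level as a covariate (diamonds, squares) and as the range over fits with 1 library left out (grey bars). Only Cd163 and Folr2 have a 95% interval below 0, before any adjustment for the number of genes tested.

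Across the 6 libraries the 3 members with values above 0 and the 7 with values below 0 differed in most pairs, though not in all. This grouping was made after the values were seen and is a description. Csf1r, Adgre1 and Cx3cr1 were each highest in TFEB 34. Lyve1, Timd4, Folr2, Cbr2 and F13a1 were each lowest in that library; Cd163 was lowest in TFEB 41 and Mrc1 in control 37. Likeness was measured as the root mean square difference of log2 CPM, centred over the 6 libraries, where 0 is an identical pattern. Over the 21 pairs among the 7 its median was 0.34 (range 0.101 to 0.868), and over the 3 pairs among the 3 it was 0.43 (0.262 to 0.531). Over the 21 pairs between them it was 1.03 (0.325 to 1.59), so the ranges overlapped. The nearest pair across the sets was Mrc1 and Csf1r, at 0.325. Csf1r was closer to Mrc1 than to Adgre1 (0.428) or Cx3cr1 (0.531), and Mrc1, which varied little, was closer to Csf1r than to 5 of the other 6 in its set, Lyve1 being the exception at 0.242. The closest pair was Folr2 and F13a1, at 0.10. Summed over the 7, the level was 139, 183 and 223 CPM in TFEB 34, 41 and 43, against 259, 213 and 226 CPM in controls 35, 36 and 37. Summed over the 3, it was 259, 162 and 114 CPM in TFEB 34, 41 and 43, against 134, 197 and 123 CPM in controls 35, 36 and 37. The sum over all 10 was 360 ± 32.9 CPM in TFEB overexpression and 384 ± 31.6 CPM in control (SD, n = 3 each).

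**Figure D3:**
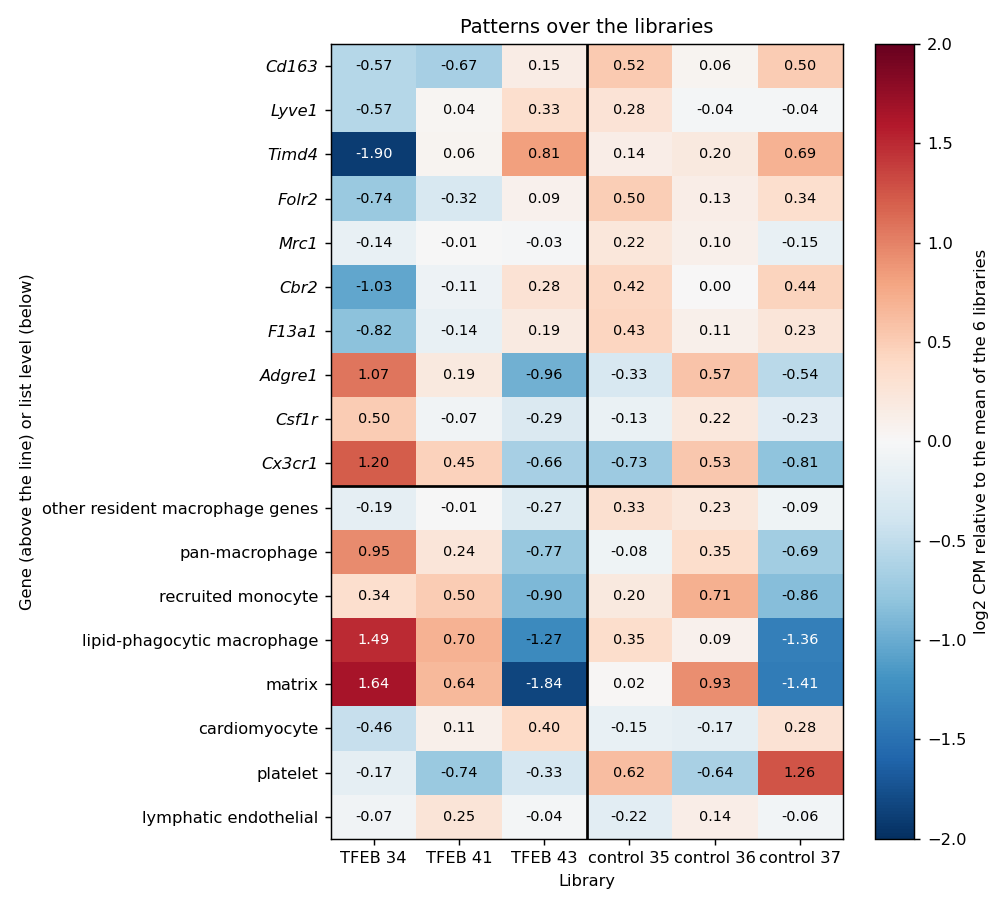
Log2 CPM of each gene (above the line) and mean log2 CPM of gene lists (below), relative to the mean of the 6 libraries. Like the pan-macrophage and matrix rows, Csf1r, Adgre1 and Cx3cr1 are highest in TFEB 34 and below 0 in TFEB 43 and control 37. They differ from those rows elsewhere, as in TFEB 41, where Csf1r is at −0.07, pan-macrophage at 0.24 and matrix at 0.64. Matrix runs from 1.64 in TFEB 34 to −1.84 in TFEB 43. Mrc1 varies little, and the other 6 are low in TFEB 34.

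General macrophage markers had a pattern like that of Csf1r, Adgre1 and Cx3cr1, though not in every library. The pan-macrophage list (17 genes that resident and recruited macrophages share, such as Cd68, Tyrobp and C1qa, none at 0 throughout) had a level of 0.95, 0.24 and −0.77 in TFEB 34, 41 and 43, against −0.08, 0.35 and −0.69 in controls 35, 36 and 37. Its summed level was 526 to 2083 CPM in TFEB overexpression and 606 to 1271 CPM in control. Of its genes, 16 of 17 lay above 0 (median 0.42 on the log2 scale, TFEB overexpression over control) and 0 passed. Cd68, a lysosomal glycoprotein of macrophages, stood at 38.2, 19.3 and 12.2 CPM in TFEB 34, 41 and 43, against 16.6, 20.1 and 8.24 CPM in controls 35, 36 and 37. Per unit of Csf1r, Cd163 stood at 10.9%, 15.1% and 31.3% in TFEB 34, 41 and 43, against 36%, 20.6% and 38.2% in controls 35, 36 and 37. Folr2 per unit of Csf1r stood at 4.16%, 8.32% and 13% in TFEB 34, 41 and 43, against 15.4%, 9.34% and 14.8% in controls 35, 36 and 37. Both ratios were lowest in TFEB 34, where Csf1r, the divisor, was itself highest at 150 CPM. Before this division Folr2 was also lowest in TFEB 34, but Cd163 was lowest in TFEB 41 (15.2 CPM, against 16.3 CPM in TFEB 34). The groups overlapped in both ratios through TFEB 43.

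With the pan-macrophage level as a covariate, the lower values of Cd163 and Folr2 stayed and their errors shrank. The fit sets its own slope on that level for each gene, so it does not measure RNA per macrophage. With the level subtracted instead, Cd163 stood at −0.50 ± 1.27 in TFEB overexpression and 0.50 ± 0.74 in control (log2, SD, n = 3 each). Folr2 stood at −0.46 ± 1.28 and 0.46 ± 0.63, and both genes overlapped between the groups. In the covariate fit Cd163 stood at −0.60 (SE 0.15), Folr2 at −0.54 (SE 0.15), F13a1 at −0.39 (SE 0.15) and Cbr2 at −0.39 (SE 0.17). Adgre1 turned to −0.13 (SE 0.14) and Csf1r to −0.028 (SE 0.098), while Cx3cr1 stood at 0.31 (SE 0.21). In that fit 9 of 10 members were below 0, where the median over all genes was −0.0083. Adgre1 and Csf1r were among these 9, each within its SE of 0. After adjustment 0 members passed, and 3 had an unadjusted p under 0.05, where 5.08% of all genes had one. With the matrix level as a covariate Cd163 stood at −0.66 (SE 0.13), Folr2 at −0.60 (SE 0.16), Cbr2 at −0.48 (SE 0.19) and F13a1 at −0.46 (SE 0.17). There 4 members had an unadjusted p under 0.05, against 3.75% of all genes, and again 0 passed. With the cardiomyocyte level 4 members had one, against 3.58%, and Cd163 stood at −0.74 (SE 0.20). The smallest adjusted p of a member in these 3 fits was 0.879, by edgeR.

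Per unit of transcript length, Csf1r was the most abundant member and Timd4 the least. Over the 6 libraries Csf1r averaged 49.8 TPM (scaled for length and depth), Cbr2 35.3, F13a1 30.2, Adgre1 22.8, Folr2 22.0, Mrc1 21.0, Lyve1 14.7, Cd163 9.97, Cx3cr1 8.47 and Timd4 2.35 TPM. Neighbours in this order overlapped in their ranges over the libraries in every case; Cx3cr1, at 3.77 to 17.9 TPM, came closest to standing clear of Timd4, at 0.640 to 3.85 TPM. Cd163 averaged 7.6 ± 1.94 TPM in TFEB overexpression and 12.3 ± 1.65 TPM in control (SD, n = 3 each). Cd163 stood at 6.96, 6.05 and 9.78 TPM in TFEB 34, 41 and 43 and at 13.8, 10.6 and 12.7 TPM in controls 35, 36 and 37. Its groups did not overlap on this scale, though they did on CPM. The share of all genes without overlap was counted on CPM only, at 2.51% wholly lower and 2.24% wholly higher. Timd4 averaged 2.47 ± 1.65 TPM in TFEB overexpression and 2.22 ± 0.293 TPM in control (SD, n = 3 each), the reverse of its order on CPM. Limma-trend on log2(TPM + 1) gave Cd163 a log2 fold change of −0.65 (SE 0.19, adjusted p = 1.00) and Folr2 one of −0.61 (SE 0.17, adjusted p = 1.00).

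The shares of the transcript models of Cd163 overlapped between the groups. The authors' estimates divide its counts over 3 RefSeq models. NM_053094 had 129, 153 and 181 estimated counts in TFEB 34, 41 and 43, against 347, 236 and 353 in controls 35, 36 and 37. Those of NM_001170395 overlapped, at 127, 54.8 and 114 in TFEB 34, 41 and 43 against 139, 125 and 89.5 in controls 35, 36 and 37. These counts are not scaled for depth, and the share of all transcript models without overlap was not counted. NM_053094 made up 59.8 ± 12.3% of the counts of the gene in TFEB overexpression and 70.7 ± 7.90% in control (SD, n = 3 each), and these shares overlapped. For Folr2, NM_008035 held 72.3% to 94.9% of the counts in TFEB overexpression and 85.6% to 89.4% in control. For Timd4, XM_006533480 was given 2.3, 8.82 and 8.10 estimated counts in TFEB 34, 41 and 43 and 0 in each control, numbers too small to compare. Such shares are estimates from reads that models have in common, and no test was made of them.

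**Figure D4:**
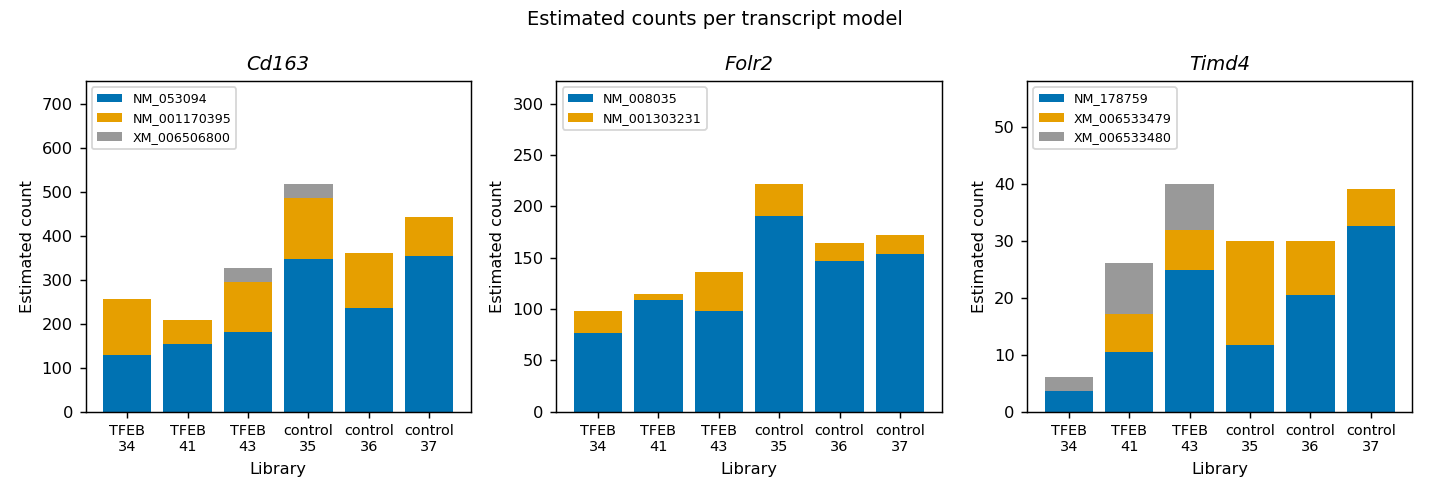
Estimated counts of Cd163, Folr2 and Timd4 in each library, stacked by RefSeq transcript model, with the 3 TFEB overexpression libraries left of the 3 controls. The blue Cd163 bars (NM_053094) lie between 129 and 181 in TFEB overexpression and between 236 and 353 in control. The counts are not scaled for depth, and Cd163 as a gene overlapped between the groups on CPM.

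Promoters are shown for 4 of the members with a value below 0, so that the letters near their starts can be compared. RefSeq gave a promoter for 7 of the 10 genes in build GRCm38.p6; none was looked up elsewhere for the other 3. Each line gives the 250 bases before a RefSeq start of the gene, 5′ to 3′ on its own strand. Capitals mark GAGGAA, the core of the motif bound by PU.1 (the myeloid factor encoded by Spi1), or TGCTGA, the core of the MAF motif, on either strand. The Cd163 window is chr6:124304401-124304650 on the plus strand, Folr2 is chr7:101845332-101845581 on the minus strand (the more downstream of its 2 listed starts), Cbr2 is chr11:120732022-120732271 on the minus strand and Mrc1 is chr2:14229164-14229413 on the plus strand.
Cd163: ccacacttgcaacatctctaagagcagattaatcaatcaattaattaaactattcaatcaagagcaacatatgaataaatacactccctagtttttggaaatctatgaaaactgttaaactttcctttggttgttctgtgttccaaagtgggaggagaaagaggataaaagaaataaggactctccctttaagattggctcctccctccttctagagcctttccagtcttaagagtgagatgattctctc
Folr2: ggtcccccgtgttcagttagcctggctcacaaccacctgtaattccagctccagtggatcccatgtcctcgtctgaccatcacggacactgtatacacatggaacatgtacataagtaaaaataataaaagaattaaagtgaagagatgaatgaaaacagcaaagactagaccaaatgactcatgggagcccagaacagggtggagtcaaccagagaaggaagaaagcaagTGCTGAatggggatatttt
Cbr2: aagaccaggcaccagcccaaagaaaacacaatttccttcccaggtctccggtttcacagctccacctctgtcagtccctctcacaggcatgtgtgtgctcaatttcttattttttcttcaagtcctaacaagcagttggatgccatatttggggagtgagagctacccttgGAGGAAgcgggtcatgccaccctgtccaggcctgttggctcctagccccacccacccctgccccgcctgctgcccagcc
Mrc1: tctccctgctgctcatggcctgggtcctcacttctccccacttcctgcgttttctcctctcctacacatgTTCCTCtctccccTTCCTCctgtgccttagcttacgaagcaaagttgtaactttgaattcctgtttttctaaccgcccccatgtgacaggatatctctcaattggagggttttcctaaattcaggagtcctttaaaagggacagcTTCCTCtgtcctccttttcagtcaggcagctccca
The Cd163 window holds neither. Folr2 has TGCTGA from 19 to 14 bases before its start, Cbr2 has GAGGAA from 79 to 74 bases before, and Mrc1 has 3 copies of GAGGAA on the opposite strand. Of the 7 members with a promoter, 3 hold GAGGAA (Cbr2, F13a1 and Mrc1) and 2 hold TGCTGA (Folr2 and Timd4), against 25.9% and 18.0% of the 27025 genes listed. CACGTG, the core of the motif that TFEB binds, was in 0 of the 7, against 6.86% of all genes. These are matches of letters in short windows and say nothing of binding elsewhere.

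Other genes of the resident programme gave values on both sides. Of 16 listed, 14 were tested, 10 lay below 0 (median −0.20 on the log2 scale) and 0 passed. Vsig4, a complement receptor of resident macrophages, stood at 0.636, 1.46 and 1.73 CPM in TFEB 34, 41 and 43, against 2.82, 3.79 and 1.94 CPM in controls 35, 36 and 37 (log2 fold change −1.17, SE 0.45). Clec10a, a lectin of macrophages and dendritic cells, stood at 3.24, 5.2 and 6.61 CPM in TFEB 34, 41 and 43, against 10.7, 8.98 and 6.61 CPM in controls 35, 36 and 37 (−0.81, SE 0.31). Neither overlapped between the groups, though Clec10a came within rounding in TFEB 43 and control 37. They were the only 2 of the 14 tested without overlap, and were named for having the smallest p of the list. Over all genes tested 2.51% lay wholly lower in TFEB overexpression and 2.24% wholly higher. Mertk, the receptor for dying cells that resident macrophages carry, stood at 0.18 (SE 0.30). The summed level of the 16 was 907 to 1352 CPM in TFEB overexpression and 1027 to 1417 CPM in control.

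Ligands and partners of the receptors were near level or as scattered as the receptors. The CSF1R and CX3CR1 axis had 8 of 11 genes higher, 0 called and a median of 0.29. Csf1, the main ligand of CSF1R, stood at 77.1 ± 4.47 CPM in TFEB overexpression and 77.2 ± 12.5 CPM in control (SD, n = 3 each). Il34, its other ligand, was at 7.95, 4.98 and 4.05 CPM in TFEB 34, 41 and 43 and at 4.69, 6.17 and 4.51 CPM in controls 35, 36 and 37 (log2 fold change 0.15, SE 0.30). Cx3cl1, the ligand of CX3CR1, stood at 0.60 (SE 0.52) and the signalling lipase gene Plcg2 at 0.35 (SE 0.31). Haem and iron handling, which lies downstream of CD163, had 5 of 9 higher, 0 called and a median of 0.09, with the iron transporter gene Slc11a1 at 0.64 (SE 0.37) and the ferritin receptor gene Ncoa4 at −0.17 (SE 0.11). Genes for the uptake of dying cells had 7 of 9 tested members higher, 0 called and a median of 0.13. Among them were Stab2, a scavenger receptor of sinusoidal endothelium (0.96, SE 0.45), and Mfge8, a bridge to dying cells (0.35, SE 0.26).

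Markers of recruited and infarct macrophages lay on both sides of 0, in shares to be read against the 51.0% of all genes above 0. Recruited monocyte genes had 4 of 7 tested members higher, 0 called and a median of 0.10. Ccr2, the receptor that brings monocytes in, stood at 19.1, 14.0 and 6.11 CPM in TFEB 34, 41 and 43, against 12.5, 17.9 and 6.37 CPM in controls 35, 36 and 37 (log2 fold change 0.10, SE 0.50). The other genes of that list with the smallest p were Ms4a4c (−0.39, SE 0.50) and Plac8 (0.31, SE 0.82). Genes of lipid-laden phagocytes had 4 of 6 higher, 0 called and a median of 0.95, with summed levels of 115 to 510 CPM in TFEB overexpression and 141 to 267 CPM in control. Gpnmb, a membrane glycoprotein of such cells and a target of TFEB and MITF, stood at 193, 81.0 and 12.6 CPM in TFEB 34, 41 and 43, against 40.8, 26.9 and 4.90 CPM in controls 35, 36 and 37. Spp1 stood at 1.59 (SE 0.93).

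**Figure D5:**
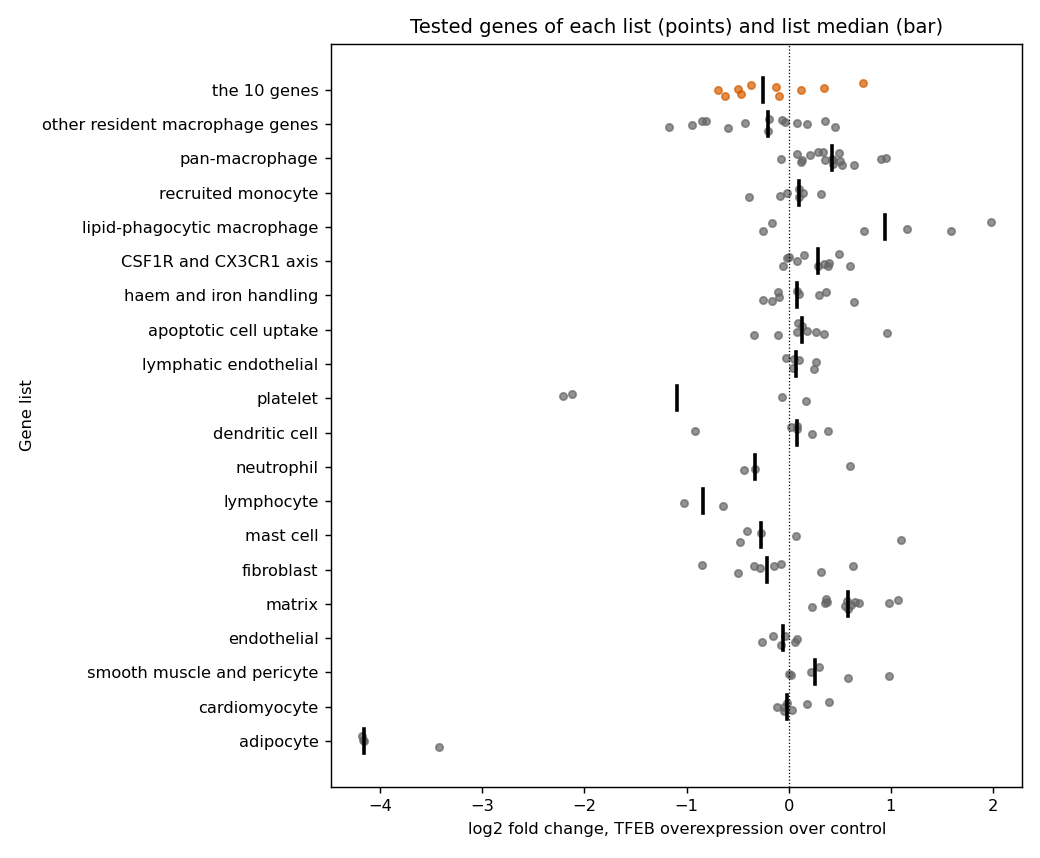
Log2 fold change of each tested gene (points) and the median (black bar) for the 10 genes and the 19 other lists, TFEB overexpression over control. The 10 genes spread from −0.70 to 0.72 around a median of −0.25, and the pan-macrophage genes lie to the right of 0 in 16 of 17 cases.

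Markers of other cells that a heart can hold had no called member in any list. Medians were −1.09 for platelets (1 of 4 tested higher), 0.08 for dendritic cells (5 of 6), −0.33 for neutrophils (1 of 3), −0.83 for lymphocytes (0 of 2) and −0.27 for mast cells (2 of 5). They were −0.22 for fibroblasts (2 of 8 higher), 0.58 for matrix (12 of 12), −0.051 for endothelium (2 of 6), 0.26 for smooth muscle and pericytes (6 of 6), −0.013 for cardiomyocytes (3 of 7) and −4.16 for adipocytes (0 of 4). The adipocyte genes are named because macrophages of fat tissue also carry Lyve1 and Mrc1. Their summed level was 0.127 to 9.22 CPM in TFEB overexpression and 14.5 to 217 CPM in control, highest in control 36. All 4 tested genes had an unadjusted edgeR p under 0.05 and lay wholly lower in TFEB overexpression. Over all genes 1.21% had such a p and 2.51% lay wholly lower. These genes mark 1 cell type and varied widely inside control, with Cfd at 22.7, 154 and 9.56 CPM in controls 35, 36 and 37. Acta2, whose promoter drives the Cre, stood at 226 ± 59.5 CPM in TFEB overexpression and 114 ± 20.1 CPM in control (SD, n = 3 each). The dendritic cell gene Xcr1 (−0.92, SE 0.43) and the mast cell gene Kit (1.1, SE 0.21) had the smallest p of their lists. Xcr1 was the only 1 of 6 below 0, at 0.490 CPM in TFEB overexpression and 0.946 CPM in control on average. The mast cell genes Cpa3, Tpsb2 and Cma1 lay at −0.27, −0.41 and −0.47, and Mcpt4 at 0.08. Neither Xcr1 nor Kit is therefore read as the level of its cell type. What part these cells had in the values of the members was not tested. The pan-macrophage, matrix, cardiomyocyte and platelet covariates given above do not divide those values among cells, and no fit used the adipocyte level.

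The genes whose pattern over the 6 libraries was most like that of Cd163 were Etfbkmt, Gpr137c, Folr2, Dusp5 and Hand2. Their root mean square differences from it were 0.070, 0.12, 0.18, 0.19 and 0.19 on the log2 scale, and genes averaging under 5 CPM were left out. Etfbkmt, a mitochondrial lysine methyltransferase gene, stood at a log2 fold change of −0.70, and Hand2, a cardiac transcription factor gene, at −0.32. Folr2 was the only member among these 5.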

How the data were processed

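RNA sequencing of 6 mouse heart libraries was used, 3 TFEB overexpression and 3 control. Per the submitters' processing notes, which give tools without their roles, the tools included RSEM 1.3.1, DESeq2 1.4.5, HISAT2 2.1.0 and Bowtie2 2.3.4.3, and the build was mm10. The authors deposited estimated counts, not scaled for depth, for 62498 RefSeq transcripts; per the file headers the same table gives TPM and FPKM, which the authors scaled for length and depth. The 6 normalised count columns hold no values. No source used here gives the strand setting or annotation release, so genes with overlapping, antisense or near-identical partners (Folr2 has the paralogue Folr1) are uncertain.

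Estimated counts were summed per Entrez gene and rounded, which gave 17524 genes; 117 of them, with 0.510% of counts, had no symbol in the RefSeq table. EdgeR 4.0.16 in R 4.3.3 (filterByExpr, TMM, quasi-likelihood test, two-sided) was fitted to 13565 genes with Benjamini-Hochberg adjustment over all of them, and a call is an adjusted p under 0.05. Intervals are at 95%. The level of a list is the mean log2 CPM (prior count 2) of its tested genes, relative to the 6 libraries. Exact permutation with 3 libraries against 3 cannot give a two-sided p below 0.1, so it was not used. Libraries of the same group were compared in pairs, and chi-square over its degrees of freedom was 43.5 to 149, above counting error. Alternatives were other scalings, filters and covariates, DESeq2 1.42.0, limma 3.58.1 (voom, and trend on log2 of TPM or FPKM plus a pseudocount), and each library left out. The edgeR, DESeq2 and limma-voom fits were run on simulated counts with known fold changes, as a check of the code only. Genes were drawn independently there, so patterns shared by many genes, as in these libraries, were not imitated.

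The members and all lists were chosen with earlier results of these data known. Named are Tfeb, the members, up to 2 genes per list with the smallest p, Csf1, Il34, Cx3cl1, Ccr2, Mertk and Cd68, and the 5 genes closest in pattern to Cd163; not every gene so chosen is printed, and Myh6, Pdgfra and Prox1 were added as checks of cell type. Figures were drawn with matplotlib 3.10.9.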

Additional observations from a re-analysis of the deposited data

How the results depend on the processing

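No member was called in any of the 20 alternatives. Each of the 10 members had a value in each alternative, and 193 of these 200 values kept their direction. The 10 alternatives that changed only the tool, scaling, filter or measure used the same libraries and gave 0 reversals. All reversals came from a covariate or a library left out. The lowest adjusted p of a member was 0.792, in edgeR without TFEB 43. The 7 reversals were Lyve1 (0.12 without TFEB 34 and 0.020 without control 35), Timd4 (0.13 without TFEB 34), Adgre1 (−0.13 with the pan-macrophage level as a covariate and −0.25 without TFEB 34) and Csf1r (−0.028 with that covariate and −0.14 without TFEB 34). With a library left out in turn, log2 fold changes ran from −1.0 to −0.53 for Cd163, −0.86 to −0.43 for Folr2, −0.81 to −0.20 for Cbr2, −0.70 to −0.23 for F13a1, −0.22 to −0.042 for Mrc1, −0.31 to 0.12 for Lyve1, −1.07 to 0.13 for Timd4, −0.25 to 0.76 for Adgre1, −0.14 to 0.28 for Csf1r and 0.20 to 1.31 for Cx3cr1. Unadjusted p under 0.05 for members numbered 0 without TFEB 34, TFEB 41, control 35 or control 37, 2 without control 36 and 4 without TFEB 43 (by edgeR, where 4.21% of all genes had one). Over all genes DESeq2 called 1 gene, Ddit4, and the other fits 0; unadjusted p under 0.05 numbered 164 in edgeR, 202 in DESeq2 and 139 in limma-voom, and 88 to 581 with a library left out. Timd4 ranged from −0.86 by limma-voom to −0.00086 on log2(FPKM + 1), and with at most 40 counts its depth limits any statement. Scaling moved the median of all genes by less than 0.1. No paired analysis was made, since the library numbers, which the groups do not share, give no pairing.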
